A study of Leucocroton havanensis with 4 samples.

Results

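Leucocroton havanensis is a Cuban shrub that accumulates nickel, and the 175 contigs described here were its abundant transcripts with a strong but incomplete preference for root. A contig is 1 sequence of the transcript set on which the reads were counted. Members had at least 50 CPM (counts divided by the library's total and multiplied by 1000000) in root without nickel, and a level in root at least 10 times and under 100 times that in shoot without nickel. They were 175 of 65936 contigs. The libraries grown without nickel chose them, so their levels and organ ratios in those libraries are a description, and the libraries grown with nickel were not used in the choice.

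The study compared roots and shoots of plantlets raised in vitro on an agar medium for 6 weeks after germination. It had 4 groups with 1 library each, namely root and shoot without nickel and root and shoot with nickel, where the growth protocol gives 500 mg/L NiSO4 for the medium. The samples labelled without nickel carry the same protocol text, so the dose is read here as that of the nickel samples. No genotype, clone or number of pooled plantlets is given in the sources used here. Per its label, the shoot library with nickel re-used data of a previous series, so in shoot the effect of nickel and that of library origin cannot be told apart. Organ and library origin cannot be told apart either in any root/shoot ratio with nickel, since that library is its base. With 1 library per group no difference had a replicate check, no test was run, and every interval covers counting error only. In tissue libraries, fewer cells of a type and less RNA per cell cannot be told apart.

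Nickel hyperaccumulators take the metal up at the root, move it through the xylem and store it in above-ground tissue, mostly in vacuoles. Known components in other plants are metal transporters of the root surface and the xylem, and small ligands such as histidine, citrate and nicotianamine that bind the metal on the way. Transcripts with a root preference in plants commonly serve nutrient uptake, cell wall formation and defence. The files pair contigs with identifiers only, so none of the 175 can be assigned to these functions, root or shoot identity could not be checked against marker genes, and no sequence is shown.

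Counted reads numbered 59802565 in root without nickel, 55660570 in root with nickel, 84917997 in shoot without nickel and 98108920 in shoot with nickel. All levels below are CPM relative to TMM-scaled library sizes (scaled CPM), where TMM is a scaling that sets aside the most extreme contigs. On that scale the organ ratios of the members without nickel ran from 8.66 to 82.1, since the limits of 10 and 100 apply to CPM from column totals. Each member had at least 3001 reads in root without nickel, 1019 in root with nickel and 60 in shoot without nickel. In shoot with nickel 4 members had under 100 reads, and the lowest had 2.

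The members covered a wide range of abundance. In root without nickel they ran from 50.1 to 6972 scaled CPM, with a median of 107. The median was 86.8 in root with nickel, 7.54 in shoot without nickel and 8.15 in shoot with nickel. Thus the middle of the group shifted little in either organ, while single contigs spread further apart in the shoot library with nickel, from 0.020 to 329 scaled CPM. Of the members, 80 lay under 100 scaled CPM in root without nickel, 48 at 100 to under 200, 28 at 200 to under 500, 12 at 500 to under 1000 and 7 at 1000 or more.

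**Figure D1:**
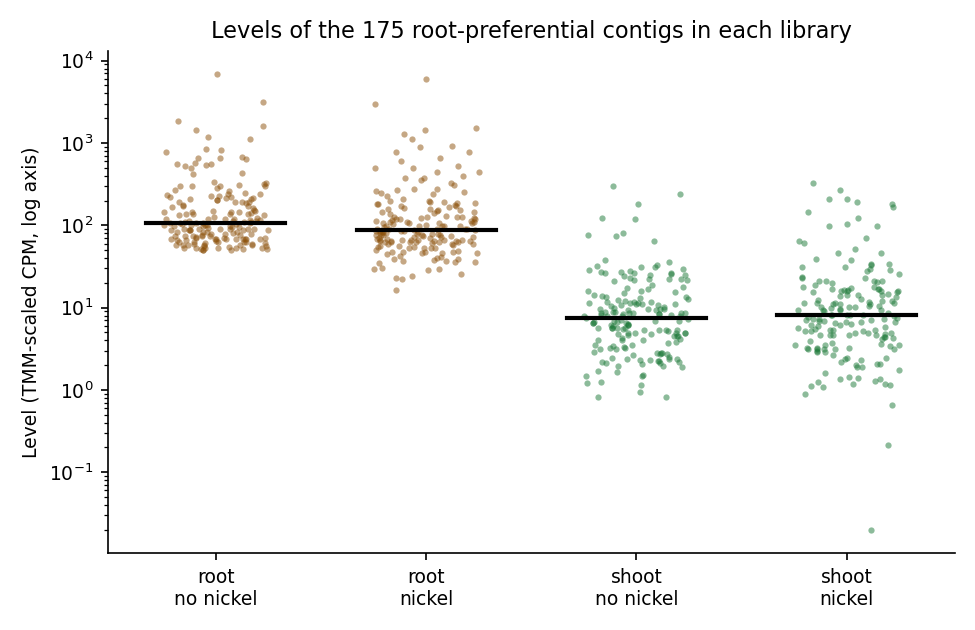
Level of each of the 175 contigs in each library, in TMM-scaled CPM on a log axis; each point is 1 contig and the black bars are medians. The median in root was 107 without and 86.8 with nickel, and in shoot 7.54 and 8.15, with the widest spread in shoot with nickel.

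A few contigs held much of the signal. The members took 4.51% of the reads of root without nickel and 4.24% of root with nickel, against 0.249% of shoot without nickel and 0.413% of shoot with nickel. Lhav_v2_contig_27595 alone held 15.5% of the members' reads in root without nickel, and the 10 most abundant held 43.8%. The members' summed level in shoot with nickel was 1.66 times that without by column totals and 1.39 times in scaled CPM. It was 1.36 and 1.14 times when the 4 largest gains were left out (Lhav_v2_contig_239, Lhav_v2_contig_5452, Lhav_v2_contig_3494 and Lhav_v2_contig_2959, chosen after their values were seen). Leaving out the largest gains lowers the ratio by itself, and the largest losses were kept. In root the summed scaled level with nickel was 0.849 times that without.

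Of the 10 most abundant members, 8 had a root/shoot ratio of 10 or more without nickel and 6 with nickel, and the ratios with nickel ran from 2.34 to 102. The 2 most abundant kept a ratio above 10. Lhav_v2_contig_27595 stood at 6972 scaled CPM in root without nickel, 6064 in root with nickel, 302 in shoot without nickel and 270 in shoot with nickel. Its root/shoot ratio was 23.1 without and 22.4 with nickel (95% exact interval of the latter 22.1 to 22.7). Lhav_v2_contig_63848 stood at 3127, 2939, 241 and 191 scaled CPM in the same order, a ratio of 13.0 without and 15.4 with nickel. Root exceeded shoot many times over under either condition. Differences of these contigs between libraries with and without nickel were small, and their direction was not the same under each scaling, with a log2 ratio in shoot of -0.16 for Lhav_v2_contig_27595 and 0.099 by column totals, and in root of -0.090 for Lhav_v2_contig_63848 and 0.058 by column totals. The steadiest members across nickel in both organs were Lhav_v2_contig_13374 and Lhav_v2_contig_14061. The former stood at 109 and 118 scaled CPM in root without and with nickel and at 5.20 and 5.16 in shoot. The latter stood at 657 and 604 in root and at 25.5 and 25.3 in shoot.

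The first question was whether the root preference seen without nickel was also present in the libraries with nickel, which had no part in the choice. Their root/shoot ratio has the re-used shoot library as its base, so organ and library origin are mixed in it. Root exceeded shoot in 173 of the 175 members with nickel, and by 10-fold or more in 97 (55.4%). Of all 60628 contigs tested, that is those reaching 10 reads in 1 or more libraries, 6.6% reached a 10-fold excess in root with nickel. Among the 4134 contigs of at least 50 CPM in root without nickel, members included, it was 5.08%. The median root/shoot ratio of the members was 14.2 without and 13.0 with nickel. The median with nickel was 0.94 over all contigs tested and 1.58 among those of at least 50 CPM in root. With nickel, 43 members lay at 10 to under 20, 38 at 20 to under 50, 10 at 50 to under 100 and 6 at 100 or more. Below 10 there were 53 members at 5 to under 10, 20 at 2 to under 5, 3 at 1 to under 2 and 2 under 1. On the same scale without nickel, 75 lay at 10 to under 20, 53 at 20 to under 50 and 13 at 50 to under 100. The remaining 34 were already below 10 without nickel, at 5 to under 10. Across the 175 contigs the organ ratios without and with nickel, which share no library, had a Spearman correlation of 0.59 and a Pearson correlation of log2 ratios of 0.52. The range of the first ratio was set by the rule, and contigs are not independent replicates.

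**Figure D2:**
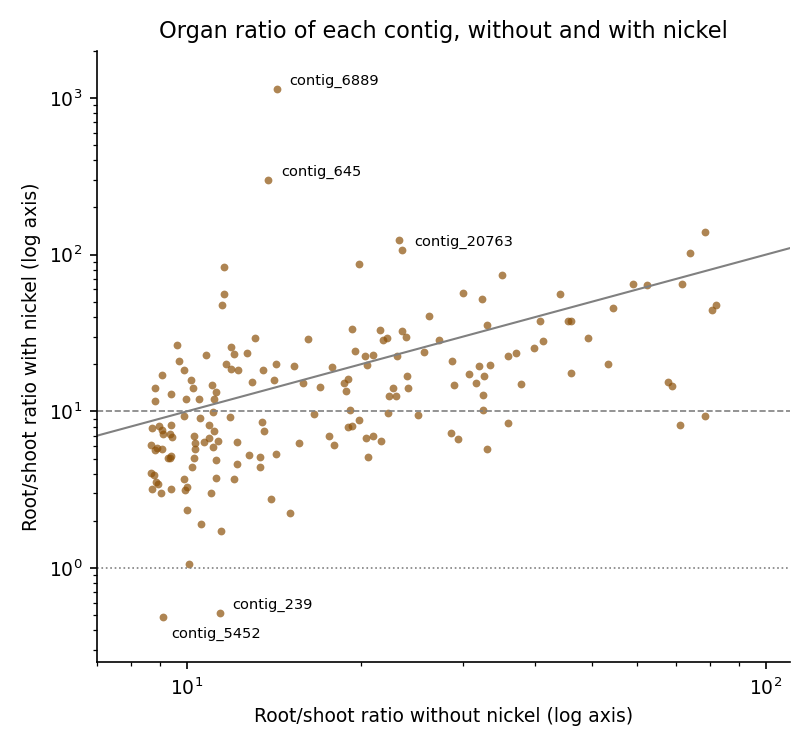
Root/shoot ratio of each of the 175 contigs without nickel (x axis) and with nickel (y axis), both on log axes; the solid line marks equal ratios, the dashed line a ratio of 10 and the dotted line a ratio of 1. With nickel 97 contigs lay at 10 or above, Lhav_v2_contig_239 and Lhav_v2_contig_5452 lay below 1 and Lhav_v2_contig_6889 lay highest.

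The count with a ratio of 10 or more with nickel differed between classes of the ratio without nickel. Of the 96 with a ratio of 10 to under 20 without nickel (column totals), 35 were at 10 or more with nickel (scaled CPM). Of the 61 at 20 to under 50 it was 46, and of the 18 at 50 to under 100 it was 16. Their median ratios with nickel were 7.32, 17.2 and 41.3, against 10.9, 23.5 and 65.0 without nickel. The median was lower with nickel in each class, but the classes were cut on the libraries without nickel. They were also cut on column totals, whereas the counts at 10 or more and the medians use scaled CPM. On scaled CPM 34 members, all of the class at 10 to under 20, were already below 10 without nickel. The members of that class below 10 with nickel had therefore not all been at 10 or more without it.

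Contigs chosen by the same limits on the libraries with nickel showed the opposite shift. There were 194 such contigs among the 65936, of which 87 were members, that is 49.7% of the members and 44.8% of the contigs chosen with nickel. For these 194 the median ratio was 18.4 with nickel and 11.1 without. The log2 change of the root/shoot ratio with nickel had a median of -0.57 over the members and of 0.76 over the contigs chosen with nickel. Over the 87 contigs in both lists it was 0.13, and the ratio was lower with nickel in 37 and higher in 50. Over all 60628 contigs tested the median was -0.082, with the ratio lower in 32743 and higher in 27885. The sign of the median change thus depended on which pair of libraries chose the contigs. Of the 88 members outside the list chosen with nickel, 62 had at least 50 CPM in root but a ratio under 10, 5 had a ratio of 100 or more, and 21 were under 50 CPM in root with nickel.

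In root, nickel was associated with small differences among the members, most of them downward. The log2 ratio of nickel over none ran from -1.94 to 1.06 with a median of -0.31, and it was below 0 in 140 members and above 0 in 35. Of all contigs tested 52.9% were below 0, and among contigs of at least 50 CPM in root it was 81.0%, so the 80.0% of the members was close to the share among abundant contigs. The root library without nickel that chose the members for a high level is also the base of this ratio. By column totals 118 members were below 0 and the median was -0.16, while the median of all contigs tested moved from -0.033 to 0.079. The difference from the 3892 other contigs of at least 50 CPM in root does not depend on the scaling. The members' median lay 0.11 below theirs, and 109 members lay below it.

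Past 2-fold here means a log2 ratio of at least 1 in either direction with an interval that excluded equality, a limit on size that involves no test. With nickel in root 16 members were lower by that rule (9.14%) and 2 were higher (1.14%). Over all contigs tested 4.82% were lower and 7.01% higher, and among contigs of at least 50 CPM in root 1.52% were lower and 0.218% higher. By column totals 8 members were lower and 2 higher. No member passed 4-fold, for which the interval also had to exclude folds under 1.5. Over all contigs tested 0.788% were lower and 1.86% higher by that size, and among contigs of at least 50 CPM in root 0.0726% and 0%. In root 128 members (73.1%) lay within 1.5-fold of their level without nickel, against 64.8% of all contigs tested and 93% of those with at least 50 CPM in root. In shoot 79 members (45.1%) did, against 54.9% and 78.4%.

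The largest decreases in root were those of Lhav_v2_contig_30927 and Lhav_v2_contig_8679. Lhav_v2_contig_30927 stood at 63.3 scaled CPM in root without and 16.5 with nickel, 3.84-fold lower (95% exact interval 3.58 to 4.12). The shoot levels were 1.92 without and 2.87 with nickel, so that its organ ratio was 33.1 without and 5.74 with nickel. Lhav_v2_contig_8679 stood at 118 and 39.6 scaled CPM in root, 2.98-fold lower (2.85 to 3.13), and at 11.5 and 6.90 in shoot. The first was lower in root and not in shoot, and the second was lower in each organ.

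The 2 members higher by 2-fold in root were Lhav_v2_contig_20763 and Lhav_v2_contig_26544, and each was lower in shoot. Lhav_v2_contig_20763 stood at 542 scaled CPM in root without and 1131 with nickel, 2.09-fold higher (2.06 to 2.11). In shoot it stood at 23.1 and 10.5, 2.19-fold lower (2.03 to 2.37), which was under 2-fold by column totals at a log2 ratio of -0.87. Its organ ratio was 23.5 without and 107 with nickel. Lhav_v2_contig_26544 stood at 53.0 and 108 scaled CPM in root, 2.04-fold higher (1.95 to 2.13). In shoot it stood at 4.57 and 1.30, 3.52-fold lower (2.87 to 4.34). For these contigs the libraries with nickel were further apart between organs than the libraries without.

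In shoot, the members differed more with nickel than in root, and in either direction. The log2 ratio ran from -6.43 to 3.93 with a median of 0.19, which was 0.45 by column totals and 0.079 by DESeq2 size factors. Its SD over members was 1.20, compared with 0.46 in root. The same SDs were 1.14 and 0.84 over all contigs tested and 0.59 and 0.27 over the other contigs of at least 50 CPM in root. It was above 0 in 94 members and below 0 in 81, and the shoot ratio was larger in size than the root ratio in 122 of 175 (69.7%), against 57.9% of all contigs tested and 59.2% of those with at least 50 CPM in root. Over all contigs tested 52.6% were above 0, and among contigs of at least 50 CPM in root 27.4%, against 53.7% of the members. The shoot library without nickel that chose the members for a low level is the base of this ratio, and the library with nickel is the re-used one. By column totals 117 members were above 0. The members' median lay 0.39 above that of the other contigs of at least 50 CPM in root, a difference that does not depend on the scaling, and 114 members lay above that group's median. The sign of the members' own median turned with the level required, at -0.038 for the 95 members of at least 100 CPM. It was 0.40 for the 80 members under 100 CPM, -0.18 for the 48 at 100 to under 200 CPM and 0.22 for the 47 at 200 CPM or more, so it followed no order of abundance.

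Past 2-fold in shoot, 36 members were higher with nickel (20.6%) and 21 lower (12.0%). Over all contigs tested 14.7% were higher and 7.95% lower, and among contigs of at least 50 CPM in root 2.35% were higher and 5.78% lower. Column totals gave 50 higher and 10 lower, whereas DESeq2 size factors gave 31 and 27. Members are low in shoot, where counts are smaller. Among contigs at 2 to under 20 CPM in shoot without nickel, a range set after the values were seen, 28 of the 127 members were higher (22.0%) and 17 lower (13.4%), and of the 13703 other contigs at that level 3.42% were higher and 9.68% lower. The shoot library without nickel set this range, chose the members for a low level and is the base of the ratio. These shares are therefore not free of the choice of members, and their difference was not tested. Past 4-fold, 7 members were higher and 5 lower, against 5.21% and 2.34% of all contigs tested and 0.677% and 1.09% of those with at least 50 CPM in root.

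The largest increases in shoot were those of Lhav_v2_contig_239 and Lhav_v2_contig_5452. Lhav_v2_contig_239 stood at 21.6 scaled CPM in shoot without and 329 with nickel, 15.3-fold higher (95% exact interval 14.5 to 16.1), and its root levels were 245 and 171. Lhav_v2_contig_5452 stood at 21.0 and 183 scaled CPM in shoot, 8.73-fold higher (8.28 to 9.20), and at 190 and 89.6 in root, 2.12-fold lower (2.06 to 2.19) and under 2-fold by column totals (log2 ratio -0.94). Of the 175, these were the contigs with more in shoot than in root with nickel, at root/shoot ratios of 0.519 (0.507 to 0.530) and 0.490 (0.476 to 0.505). Lhav_v2_contig_2959, singled out after its values were seen, came to near equality. It stood at 219 and 155 scaled CPM in root without and with nickel and at 21.7 and 146 in shoot, a ratio of 1.06 (1.03 to 1.09) with nickel.

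The largest decreases in shoot were those of Lhav_v2_contig_6889 and Lhav_v2_contig_645. Lhav_v2_contig_6889 had 294 reads (4.0 scaled CPM) in shoot without nickel and 2 reads (0.020 scaled CPM) with nickel. The ratio of the former to the latter was 203 (95% exact interval 55.8 to 1686), and in root the contig stood at 57.1 without and 22.4 with nickel. Lhav_v2_contig_645 had 396 reads (5.38 scaled CPM) in shoot without and 22 reads (0.216 scaled CPM) with nickel, 24.9-fold lower (16.2 to 40.2), and stood at 74.4 and 64.3 in root. Both were near absence in the shoot library with nickel and present in the other 3. The other members past 4-fold lower in shoot, named after their values were seen, were Lhav_v2_contig_27301, Lhav_v2_contig_49369 and Lhav_v2_contig_29469. They were 7.53-fold, 5.55-fold and 4.21-fold lower.

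**Figure D3:**
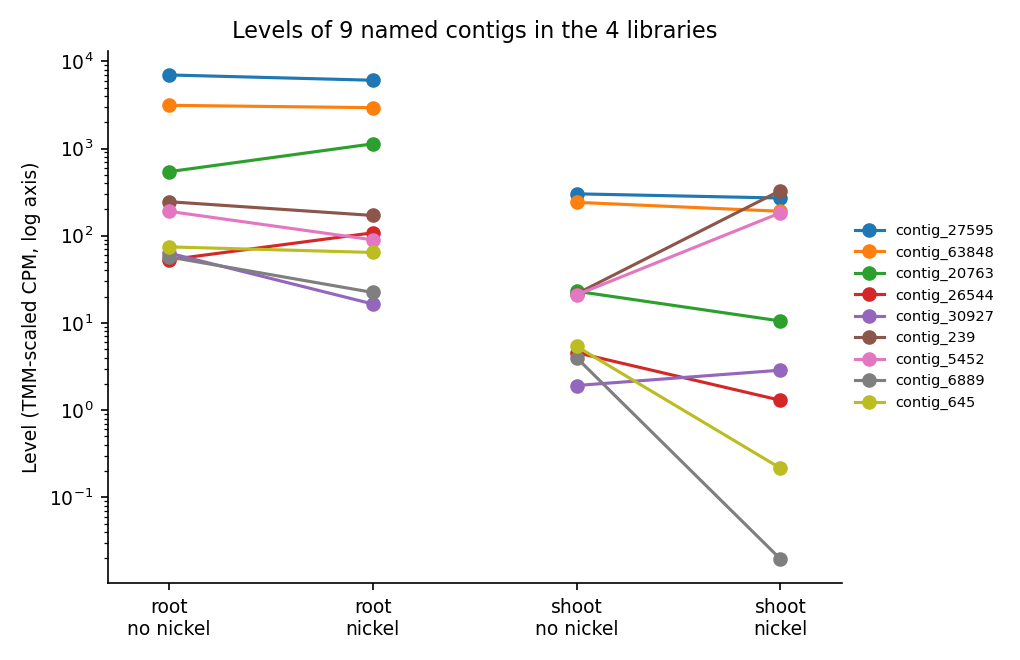
Level of 9 named contigs in the 4 libraries, in TMM-scaled CPM on a log axis; points are single libraries, and lines join the libraries of 1 organ. Lhav_v2_contig_239 and Lhav_v2_contig_5452 stood at 21.6 and 21.0 in shoot without nickel and at 329 and 183 with nickel, while Lhav_v2_contig_6889 stood at 4.0 and 0.020.

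The nickel ratios of the members in root and shoot showed no common trend. Over the 175 contigs Pearson's r between them was 0.011 and Spearman's rho was -0.00039. Values near 0 were not particular to the members. Over all contigs tested they were -0.0088 and 0.025, and among contigs of at least 50 CPM in root -0.074 and 0.012. In 74 members (42.3%) the level with nickel was lower in root and higher in shoot, in 66 lower in each organ, in 20 higher in each and in 15 higher in root and lower in shoot. The first pattern held for 26.3% of all contigs tested and 21.5% of those with at least 50 CPM in root. The second, 37.7% of the members, held for 25.9% and 59.3%, the third (11.4%) for 24.6% and 5.85%, and the fourth (8.57%) for 19.1% and 13.1%. Among contigs of at least 50 CPM in root, the first pattern held for 40.1% of the 227 with a ratio of 5 to under 10. It held for 49.3% of the 67 with a ratio of 100 or more, both by column totals without nickel. The first pattern is also the direction in which the rule selects, since root without nickel was required to be high and shoot without nickel low. Of the 175, 107 were past 2-fold in neither organ, 11 in root only, 50 in shoot only and 7 in both, that is 61.1%, 6.29%, 28.6% and 4%. Over all contigs tested these shares were 69.1%, 8.26%, 19.1% and 3.57%, and among contigs of at least 50 CPM in root 90.7%, 1.14%, 7.52% and 0.605%.

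Of the members whose level with nickel differed in the same direction in both organs, 1 was past 2-fold in each, namely Lhav_v2_contig_6889, which was lower. Ranked by the smaller of their log2 ratios in root and shoot, the leading members among those higher in both organs were Lhav_v2_contig_32306 and Lhav_v2_contig_42415. Lhav_v2_contig_32306 stood at 67.6 and 97.5 scaled CPM in root without and with nickel and at 2.35 and 4.62 in shoot. That was 1.44-fold (1.39 to 1.5) and 1.97-fold (1.65 to 2.35) higher, under 2-fold in each organ, though the log2 ratio in shoot was 1.22 by column totals. Lhav_v2_contig_42415 was 1.43-fold (1.38 to 1.47) higher in root and 1.33-fold (1.13 to 1.57) higher in shoot. Lhav_v2_contig_47408 stood at 68.1 and 29.7 scaled CPM in root and at 1.25 and 0.649 in shoot, 2.30-fold (2.17 to 2.43) and 1.93-fold (1.39 to 2.69) lower, with a log2 ratio in shoot of -1.03 by DESeq2 size factors. Its root/shoot ratio was 54.5 without and 45.7 with nickel.

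**Figure D4:**
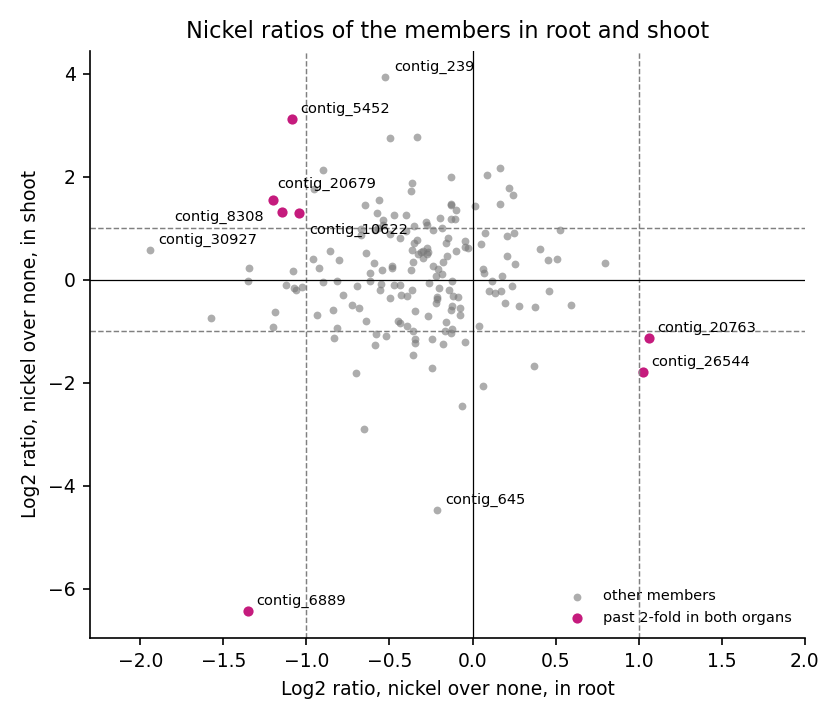
Log2 ratio of nickel over none in root (x axis) and in shoot (y axis) for the 175 contigs, with dashed lines at 2-fold; coloured points are the 7 contigs past 2-fold in both organs. The points spread further along the shoot axis (SD 1.20) than along the root axis (SD 0.46).

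The root/shoot ratio moved by 4-fold or more with nickel in 24 members, and was lower in 16 (9.14%) and higher in 8 (4.57%). Over all contigs tested 7.87% were lower and 5.31% higher by that size, and among contigs of at least 50 CPM in root 1.31% and 1.52%. Among the members, the largest decreases of the ratio were those of Lhav_v2_contig_239, 21.9-fold, and Lhav_v2_contig_5452, 18.5-fold. The largest increases were those of Lhav_v2_contig_6889, 33.8-fold, and Lhav_v2_contig_645, 19.2-fold. All 4 of these folds have a prior count of 2 added. In these 4 contigs the shoot ratio was larger in size than the root ratio.

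Set beside its neighbours in organ preference, the group had a median between theirs in root. The median log2 nickel ratio in root was -0.53 for the 67 root-specific contigs (100-fold or more, at least 50 CPM in root), -0.31 for the members and -0.20 for the 3892 other contigs of that abundance. Past 2-fold lower in root were 18 of the 67 (26.9%), 16 of the 175 (9.14%) and 29 of the 3892 (0.745%). Higher in root were 0, 2 (1.14%) and 7 (0.18%) of them. In shoot, past 2-fold higher were 18 (26.9%), 36 (20.6%) and 43 (1.10%) of them. Lower in shoot were 5 (7.46%), 21 (12.0%) and 213 (5.47%). Of the 67, 20 had no read in a shoot library, where a 2-fold decrease may go uncalled. Over all contigs tested, 4.82% were lower and 7.01% higher in root, and 14.7% higher and 7.95% lower in shoot. The 243 shoot-preferential contigs, chosen by the mirror image of the rule, had medians of -0.038 in root and -0.47 in shoot. Of these, 1 was past 2-fold higher in shoot (0.41%) and 40 lower (16.5%), a larger share lower than among the members. All these groups were cut on the libraries without nickel, which are also the base of the nickel ratios, and the differences between groups were not tested.

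**Figure D5:**
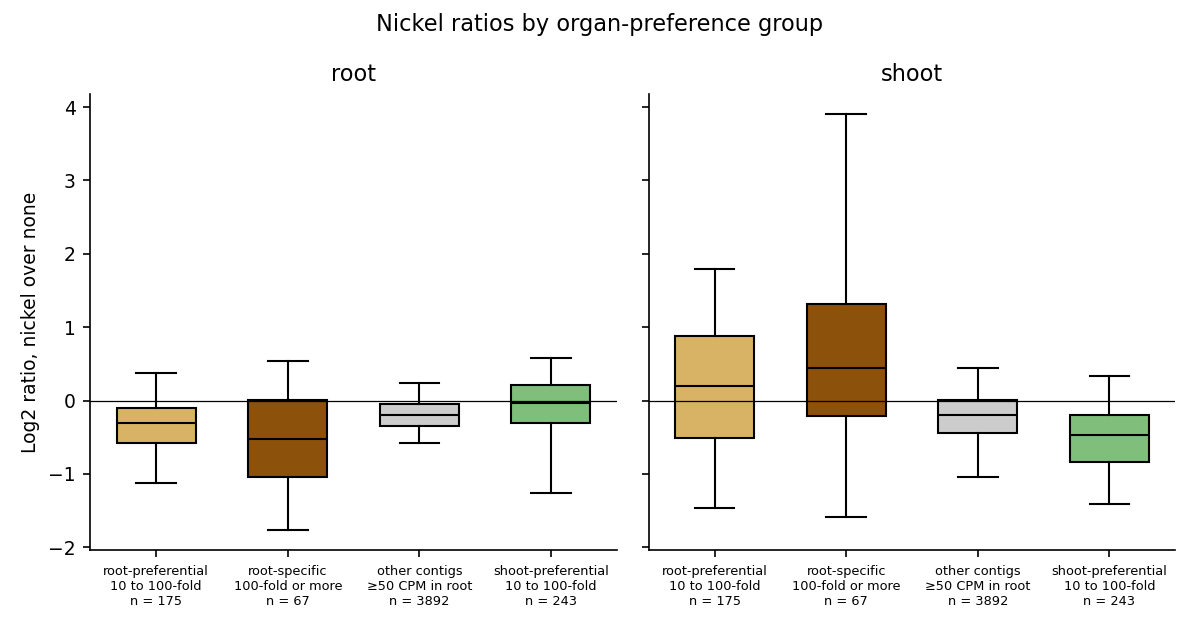
Log2 ratio of nickel over none in root (left) and shoot (right) for 4 groups of contigs cut on the libraries without nickel; lines are medians, boxes the middle 50% and whiskers run from the 5th to the 95th percentile of contigs. Medians in root were -0.31, -0.53, -0.20 and -0.038 from left to right, and 20 root-specific contigs had no read in a shoot library, so that their shoot ratios rest on the prior count of 2.

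The limits of the rule cut through a continuous range. Just inside and just outside 50 CPM in root without nickel lay Lhav_v2_contig_21348 at 50.2 CPM and Lhav_v2_contig_27244 at 49.9 CPM (column totals). At the ratio of 10 they were Lhav_v2_contig_10150 at 10.02 and Lhav_v2_contig_705 at 9.92. At the ratio of 100 they were Lhav_v2_contig_23064 at 94.9 and Lhav_v2_contig_37623 at 100.2. Lhav_v2_contig_705, outside by that margin, stood at 9.83 scaled CPM in shoot without and 69.5 with nickel, 7.08-fold higher (6.55 to 7.65). Lhav_v2_contig_27244 and Lhav_v2_contig_37623, also outside, were 1.62-fold and 1.69-fold higher in shoot with nickel. In root they were 2.49-fold (2.33 to 2.67) and 2.98-fold (2.85 to 3.12) lower.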

How the data were processed

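Per the labels' protocols, RNA stabilised in RNAlater was extracted with TRIzol LS, treated with DNase and made into stranded polyA libraries. The deposited values are raw read counts per contig, 1 file for each library, per the file headers. For aligner, counter, assembly and the division of reads among near-identical contigs, the sources used here state nothing. Even numbers made up 55.5% to 61.6% of counts from 1 to 20, so read pairs may in part be counted double, and counting intervals may be too narrow. Members were chosen on CPM from column totals. Ratios used TMM sizes (edgeR 4.0.16, R 4.3.3) over 60628 contigs with at least 10 reads in a library, with factors of 1.00, 1.11, 0.867 and 1.04 for root without, root with, shoot without and shoot with nickel. Log2 ratios and fold changes of the root/shoot ratio have a prior count of 2. Other folds and the root/shoot ratios of named contigs have none. Intervals are exact 95% (conditional binomial, Clopper-Pearson). Alternatives included column totals and DESeq2 1.42.0 size factors. Calculations were tested on simulated data. Members, size rules and lists were chosen with earlier results of these data known. Named contigs were the most abundant, the steadiest, those at the limits, and the highest and lowest 2 per comparison with at least 100 reads, other than those marked as named after their values were seen. The limit of 100 reads was not met in each library compared. Lhav_v2_contig_6889 and Lhav_v2_contig_645 had 2 and 22 reads in shoot with nickel.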

Additional observations from a re-analysis of the deposited data

Results flagged for a closer look

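In 6 members the level with nickel was past 2-fold higher in one organ and past 2-fold lower in the other (3.43%), against 1.87% of all contigs tested and 0.363% of those with at least 50 CPM in root. DESeq2 size factors gave the same 6, whereas by column totals 2 of the 6 remained, Lhav_v2_contig_20679 and Lhav_v2_contig_26544. As each group had 1 library, this difference between the organs was not tested, and the shoot side includes any difference of library origin. Lower in root and higher in shoot were Lhav_v2_contig_5452, Lhav_v2_contig_20679, Lhav_v2_contig_8308 and Lhav_v2_contig_10622. The log2 difference, taken as the root ratio less the shoot ratio, was -4.21, -2.74, -2.46 and -2.34 in that order. Lhav_v2_contig_20679 stood at 84.0 and 36.6 scaled CPM in root without and with nickel and at 5.57 and 16.3 in shoot. Lhav_v2_contig_8308 stood at 145 and 65.7 in root and at 13.7 and 34.1 in shoot. Lhav_v2_contig_10622 stood at 213 and 103 in root and at 15.2 and 37.5 in shoot. Higher in root and lower in shoot were Lhav_v2_contig_26544 and Lhav_v2_contig_20763, with a log2 difference of 2.82 and 2.19.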

How the results depend on the processing

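Of 83 recalculations of 11 summary values, 69 stayed within 1.5 times the count, or within the 95% rank interval of the median. A level of 25 CPM gave 333 members and one of 100 CPM gave 95. At 100 CPM, 8 members were past 2-fold in root, 34 past 2-fold and 7 past 4-fold in shoot, 55 had a ratio of 10 or more with nickel and 14 had a ratio moved 4-fold, as fewer contigs entered, and the median log2 ratio in shoot turned to -0.038. Column totals gave 10 members past 2-fold in root, 2 past 2-fold in opposite directions in the organs (6 reported, a recalculation added after the data were seen) and medians of -0.16 in root and 0.45 in shoot. A filter of 50 reads gave a root median of -0.23. Members chosen by TMM-scaled CPM had a median log2 root/shoot ratio with nickel of 3.93 (3.69 reported). Column totals carry no TMM factor, which moves the log2 ratios of most contigs of an organ by a like amount. A level of 100 CPM and TMM-scaled CPM chose other sets of members. A filter of 50 reads changed which contigs set the TMM factors. TMM-scaled and DESeq2-scaled CPM chose 144 and 135 members. Column totals moved the median of all contigs tested in shoot from 0.050 to 0.29. Past 4-fold in root, 0 members were found under all alternatives run. Without the shoot library with nickel, added after the data were seen, 15 members were past 2-fold in root, with a median of -0.24. Halved counts changed no count of members past 2-fold or 4-fold. Of 144 recalculations for named contigs, 0 turned a difference past 2-fold around, but column totals brought Lhav_v2_contig_5452 in root and Lhav_v2_contig_20763 in shoot under 2-fold. No paired analysis was possible because each group had 1 library. Leaving out a replicate was not run for the same reason.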
